A study of Mus musculus with 384 samples.

Results

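Lgr5+ cells of the adult mouse lung were examined here as single cells that carried the Lgr5 reporter at sorting and passed the study's quality filter. They were taken as every column of the filtered expression matrix whose name carries the Lgr5 line, which gave 57 cells, 29 from Lgr5 mouse 1 and 28 from Lgr5 mouse 2, of 384 wells in all. The mice carried Lgr5-IRES-CreERT2 and the Rosa26-lox-stop-lox-TdTomato reporter (Lgr5-CreERT2;R26-Tom), and tamoxifen switched the reporter on, so that a cell keeps tdTomato after Lgr5 itself is turned off. Dissociated lung cells were sorted as CD31-CD45-CD11b-TER119- Tom+, a gate that removes endothelial cells, leukocytes and red cells but lists no epithelial marker for these single cells, although EpCAM was stained. The other kept cells, used for comparison, were 50 and 75 Lgr6+ cells from 2 Lgr6-EGFP-CreERT2 mice, sorted as GFP+ with the same depletion. Per the study's methods, most of its experiments used mice 7 to 10 weeks old. The labels give neither the age nor the sex of the animals behind these cells. With 2 mice per line, the mouse was the replicate, and cells of a mouse were not.

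Lgr5 is a membrane receptor for R-spondins, secreted proteins that raise Wnt signalling by taking the ubiquitin ligases Znrf3 and Rnf43 off the cell surface. It is best known from stem cells of the intestine and hair follicle, and its relative Lgr6 binds the same ligands. Mesenchymal cells of the lung include fibroblasts that lay down collagens and proteoglycans around the alveoli, pericytes on capillaries, and smooth muscle around airways and vessels, which is recognised by contractile proteins such as Acta2.

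Each kept cell was its own library, made with a full-length protocol that adds no molecular identifiers, which makes a count a read, and intervals cover counting error only. The Lgr5+ cells held between 26546 and 1983295 reads (medians 263129 and 272729 in the 2 mice) and between 2109 and 6512 genes (medians 4277 and 3640). Their reads summed to 9874249 and 13198680, against 28875278 and 124650544 in the Lgr6+ mice, whose cells had medians of 332588 and 1537593 reads. Doublets were not called here, and the filter had removed the 1% of cells with the most genes. Because the filter asked for tdTomato above 32 TPM (a share of transcripts corrected for their length) and for Ptprc (CD45) and Pecam1 (CD31) under 1 TPM, the levels of these 3 genes are not findings. The kept Lgr6+ cells, whose labels name no tdTomato allele, held tdTomato at a mean log2(TPM + 1) of 11.07 and 10.98, beside 10.81 and 10.91 in the Lgr5+ cells.

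The markers of the label were read first. Lgr5 was detected, with at least 1 read, in 23 of 29 cells of mouse 1 (79.3%, exact Clopper-Pearson 95% interval 60.3 to 92%) and in 21 of 28 cells of mouse 2 (75%, 55.1 to 89.3%). Its level, the mean of log2(TPM + 1) over all cells of a mouse, was 5.29 and 4.69 (4.99 ± 0.42, SD, n = 2 mice), with single cells running from 0 to 10.95. Vim, the intermediate filament of mesenchymal cells, was detected in 28 and 27 cells at a level of 9.37 and 9.62. Col1a1, the main chain of type I collagen, was detected in 25 and 24 cells at 6.61 and 6.02. Pdgfrb, a receptor of pericytes and fibroblasts, was the weakest of the 4, in 5 and 8 cells at 1.01 and 1.80. Of the 57 cells, 55 had Col1a1, Vim or Pdgfrb, 49 had Col1a1 and Vim together, 39 had Lgr5, Col1a1 and Vim, and 9 had all 4 genes. The mesenchymal label was thus met by Vim and Col1a1 in most cells and by Pdgfrb in few, and 13 of the 57 sorted cells had no read of Lgr5.

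**Figure D1:**
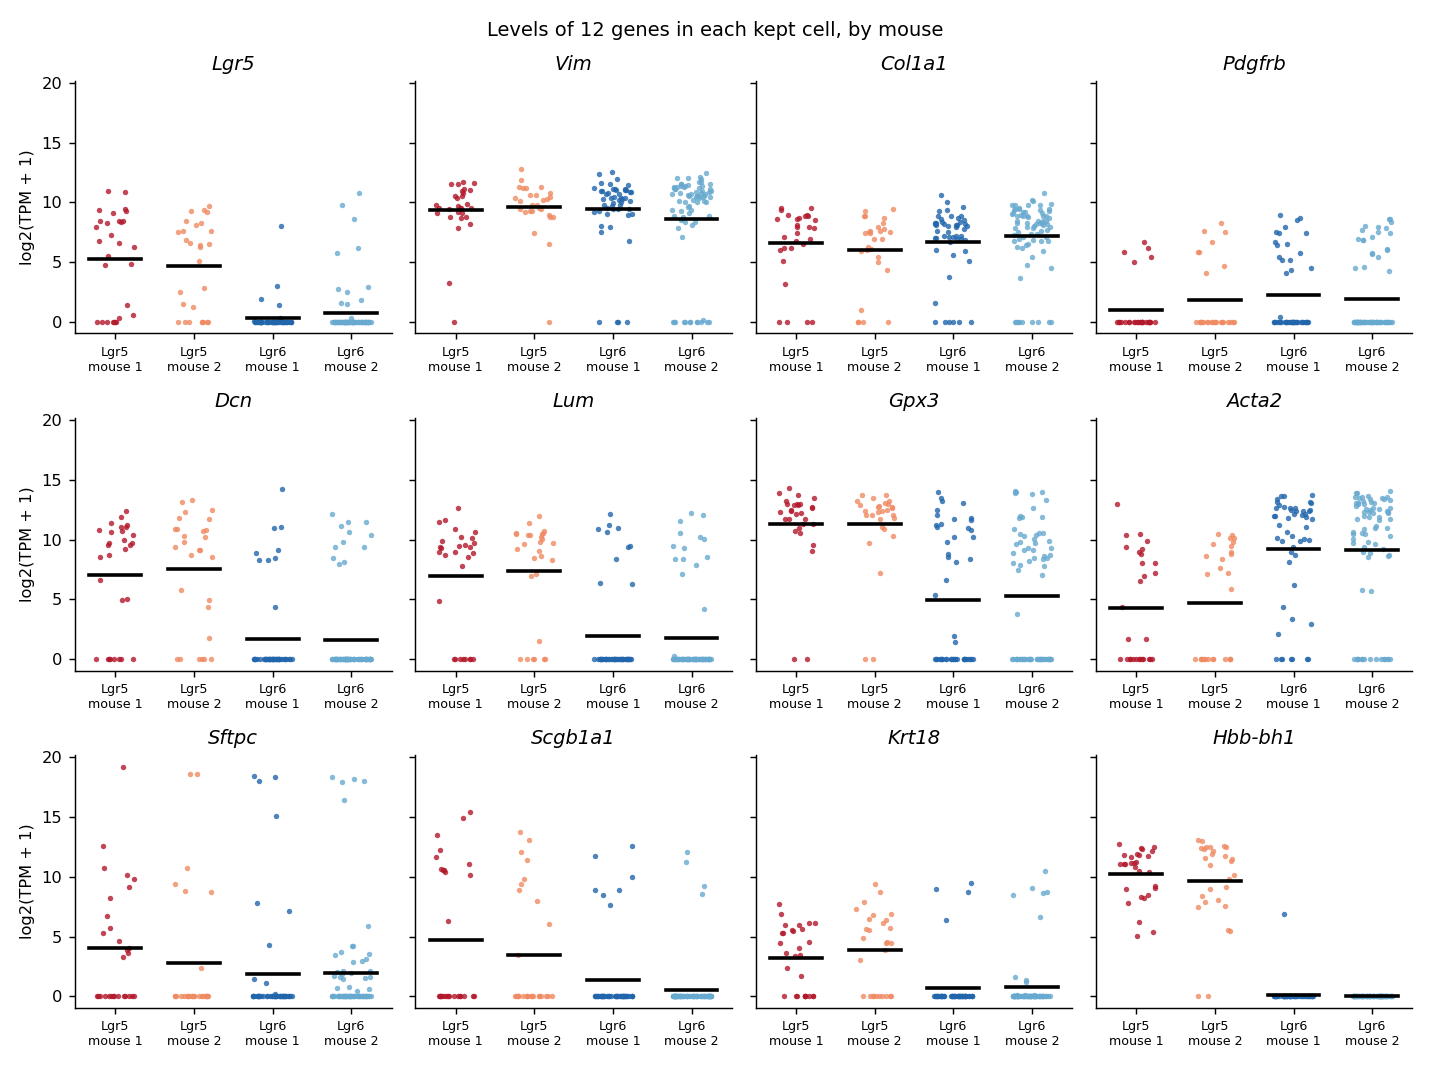
Level of 12 genes in each kept cell as log2(TPM + 1), by mouse, where a point is a cell and the bar is the mean over the cells of that mouse. The mean of Dcn, Lum, Gpx3, Krt18 and Hbb-bh1 is higher in both Lgr5 mice than in both Lgr6 mice, although many Lgr6+ cells are high in Gpx3 and part of the Lgr5+ cells are at 0 for Krt18, the mean of Acta2 lies the other way round, and Vim and Col1a1 are high in all 4 mice.

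The most abundant transcripts were those of general upkeep. The highest mean level belonged to Rn45s, the precursor of ribosomal RNA, at 16.93, which took 26.7% and 24.96% of the summed reads of the 2 mice, and between 5.66 and 66.8% of the reads of a single cell. It was followed by Gm20594 at 12.90, by the translation factor Eef1a1 at 12.43 and by Fth1, the heavy chain of the iron store ferritin, at 12.41. Of the 20 highest genes, 9 were ribosomal protein genes, from Rplp1 at 12.30 to Rps4x at 11.33. The secreted proteins among the 20 were Gsn, the actin-severing gelsolin, at 11.92 and Cst3, a protease inhibitor, at 11.62, and the others named were the nuclear RNA Malat1, Rapgef4, the ferritin light chain Ftl1 and the isomerase Ppia.

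Detection was broad for few genes. Of 23422 genes in the count table, 18334 had a read in at least 1 Lgr5+ cell, 2681 in 50% or more of the cells, and 80 in all 57. Among these 80 genes, 19 were ribosomal protein genes, and the 10 with the highest level were Rn45s, Gm20594, Fth1, Rps19, Cst3, Malat1, Rps27a, Rapgef4, Rpl19 and Ftl1. The 20 genes that varied most between cells of the same mouse were of other kinds. They were led by Rpl34-ps1 (SD 5.60 on the log2 scale), the club cell secretory protein Scgb1a1 (5.49), the metallothioneins Mt2 and Mt1 (5.42 and 5.41), which bind zinc, and the surfactant protein Sftpc (5.30), and they included the immediate early genes Fos (5.04), Ier3 (4.68) and Cyr61 (4.77), the myosin light chain Myl9 (4.92), the proteoglycan Dcn (4.75) and the hyaluronan-binding Tnfaip6 (4.72). Scgb1a1 and Sftpc were each detected in 22 of the 57 cells, and Dcn in 43.

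The extracellular matrix genes described the bulk of the cells, with a median of 12 of 16 listed genes detected per cell in either mouse. Mgp, an inhibitor of calcification, had the highest level among them in mouse 1 after Bgn, at 10.06, and the highest in mouse 2, at 9.91, and it was found in 25 and 24 cells. Bgn, the proteoglycan biglycan, was at 10.13 and 9.02, Sparc, a collagen-binding glycoprotein, at 7.64 in both mice, and Col3a1, the type III collagen chain, at 7.58 and 7.34. Fn1, fibronectin, was seldom seen, in 7 cells of each mouse at 0.96 and 0.80. In 3 of the 57 cells no read of Col1a1, Col1a2 or Col3a1 was found.

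Dcn and Lum were the 2 of 16 matrix genes with a higher CPM in both Lgr5+ mice than in both Lgr6+ mice (18.9% of all genes tested were). Dcn, decorin, which organises collagen fibrils, was at a level of 7.00 and 7.51 in the Lgr5+ mice and at 1.67 and 1.60 in the Lgr6+ mice, and was detected in 21 and 22 Lgr5+ cells against 9 of 50 and 12 of 75 Lgr6+ cells. Lum, lumican, was at 6.93 and 7.34 against 1.91 and 1.74, in 21 and 22 cells against 10 and 16. Either gene was detected in most Lgr5+ cells and in few Lgr6+ cells, and 36 of the 57 cells had both. Bgn, of the same proteoglycan family, overlapped between the lines, at 10.13 and 9.02 against 9.99 and 9.50. After thinning to 99000 reads per cell (1, 3, 13 and 2 cells of the 4 mice held fewer and were dropped), Dcn was found in 71.4% and 84% of the Lgr5+ cells and in 16.2% and 16.4% of the Lgr6+ cells. Reads were also summed per mouse and given as CPM, a share of the summed library after TMM scaling, where Lum had 844 and 938 against 187.1 and 183.5 in Lgr6+ cells. Its log2 ratio was 2.27 ± 0.38 (SE), with an unadjusted p of 0.00064 and a Benjamini-Hochberg p of 0.327 from edgeR. The sums separated Dcn less than the cell means did, with 617 and 1053 CPM against 483 and 179.3 CPM. In such sums, more cells with a gene and more reads of it per cell cannot be told apart.

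The other matrix genes mostly lay the opposite way. Of the 16 listed and tested, 11 had a lower CPM in both Lgr5+ mice than in both Lgr6+ mice, where 24% of all 14086 genes tested did, and 2 had a higher CPM in both, where 18.9% of all genes did. At an unadjusted p under 0.05 by edgeR, 7 were lower and 1 higher, against 5.25% and 4.06% of all genes, and the median log2 fold change was -1.06 beside -0.05 over all genes. Mgp stood at 600.4 and 1181 CPM against 3452 and 3613 CPM in Lgr6+ cells (log2 ratio -1.99 ± 0.40, SE, with an adjusted p of 0.327 from edgeR). Sparc and Fbn1, the fibrillin of elastic fibres, had log2 ratios of -1.51 ± 0.40 and -2.01 ± 0.48 (SE).

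**Figure D2:**
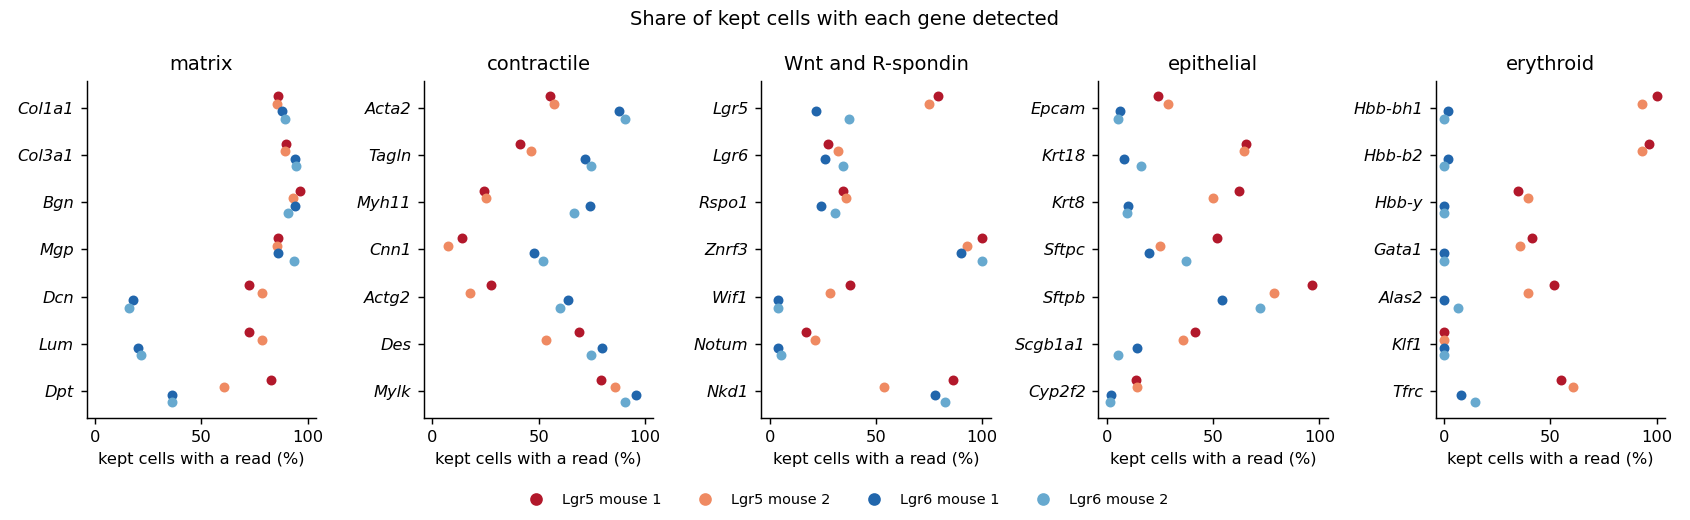
Share of kept cells with at least 1 read (percent) for 5 groups of genes, with a point for each of the 4 mice. The Lgr5+ mice lie far to the right of the Lgr6+ mice for Dcn, Lum, Krt18, Krt8, Hbb-bh1 and Hbb-b2 and to the left for Myh11, Cnn1 and Actg2.

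R-spondin and Wnt pathway genes gave a thin signal around Lgr5. Lgr5, on chromosome 10 from 115450311 to 115587780 of GRCm38 (mm10), had 711 and 403 CPM in the Lgr5+ mice against 29.03 and 63.7 CPM in the Lgr6+ mice, and the reporter follows this gene by design. Of its relatives, Lgr6 was detected in 8 and 9 Lgr5+ cells at 1.56 and 1.77, which overlapped the Lgr6+ mice at 1.15 and 1.61, and Lgr4 in 5 and 4 cells. Lgr5 and Lgr6 were found together in 13 of the 57 cells. The ligand Rspo1 had reads in 10 cells of each mouse at 1.17 and 0.89, Rspo2 in 2 and 1, and Rspo3 and Rspo4 in 0 of 57. The ligase Znrf3 was found in 29 and 26 cells at 3.90 and 3.28, and Rnf43 in 2 and 1.

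Among 12 Wnt target genes, the secreted inhibitor Wif1 was at 3.02 and 2.31 in the Lgr5+ mice and at 0.38 and 0.37 in the Lgr6+ mice, in 11 and 8 cells against 2 and 3. Notum, an enzyme that inactivates Wnt proteins, was at 1.31 and 1.09 against 0.22 and 0.30, in 5 and 6 cells against 2 and 4. Axin2, the target most often used as a readout of the pathway, was seen in 3 and 4 Lgr5+ cells at 0.31 and 0.35. Tnfrsf19 lay lower in the Lgr5+ mice, at 1.16 and 2.80 against 4.78 and 4.88. Ascl2 had no read in any of the 57 cells. The sums of Wif1 did not overlap either, with 106.3 and 321 CPM against 88.6 and 12.96 CPM (log2 ratio 2.08 ± 0.99, SE, unadjusted p = 0.0763 from edgeR). Of the 11 members tested, 3 had a higher CPM in both Lgr5+ mice than in both Lgr6+ mice and 2 a lower one. These shares were 18.9% and 24% over all genes. At an unadjusted p under 0.05 by edgeR, 0 were higher and 1 lower (4.06% and 5.25% of all genes). The median log2 fold change of the list was -0.35.

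Contractile genes were present in part of the cells only. Acta2, smooth muscle actin, was detected in 16 cells of each Lgr5+ mouse at a level of 4.30 and 4.73, against 44 of 50 and 68 of 75 Lgr6+ cells at 9.25 and 9.13. Its CPM was 1023 and 521 against 4905 and 5305 (log2 ratio -2.73 ± 0.40, SE), and edgeR gave it an unadjusted p of 0.0003 and a Benjamini-Hochberg p of 0.327. The groups did not overlap in level, in share of cells or in CPM. Tagln, an actin-binding protein of smooth muscle, was at 3.22 and 3.33 against 6.77 and 7.05. Of the genes nearest to a mature contractile state, the myosin heavy chain Myh11 was found in 7 cells of each Lgr5+ mouse, calponin Cnn1 in 4 and 2, and the enteric actin Actg2 in 8 and 5. Mylk, the kinase of the myosin light chain, and the filament protein Des were wider, in 23 and 24 and in 20 and 15 cells. All 8 smooth muscle genes of the list had a lower CPM in both Lgr5+ mice than in both Lgr6+ mice (24% of all genes did), with a median log2 fold change of -2.21, and 4 of them had an unadjusted p under 0.05 by edgeR, as 5.25% of all genes did in this direction. For Cnn1 the 2 Lgr5+ mice differed widely, with 1001 CPM from 4 cells in mouse 1 and 0.53 CPM from 2 cells in mouse 2. Acta2 and Lgr5 were not exclusive, with 24 of 57 cells holding both.

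Fibroblast subsets were represented by some of their markers. Of the 12 alveolar fibroblast genes, the carboxylesterase Ces1d was the most frequent, in 12 and 17 cells at 3.69 and 4.98, while the receptor Pdgfra was found in 6 and 3 cells, the ligand Fgf10 in 9 and 8, the transcription factor Tcf21 in 3 and 1, and Wnt2 in 0 and 1. In CPM, 8 of the 12 lay below both Lgr6+ mice (24% of all genes did) and 1 above. Inmt, a methyltransferase, had 172.99 and 108.4 CPM against 594 and 1354 CPM, although its mean level over cells, 2.36 and 1.61, lay above the 1.46 and 1.40 of the Lgr6+ mice. Of the 8 adventitial fibroblast genes, Dpt, dermatopontin, was found in 24 and 17 cells at 6.68 and 4.89 against 2.62 and 2.92, Mfap5, of elastic microfibrils, in 15 and 14 cells and Col14a1 in 15 and 18, whereas Pi16 was seen in 4 and 0 and Cd248 in 0 cells. In CPM, 2 of these 8 lay above both Lgr6+ mice and 3 below (18.9% and 24% of all genes did), with a median log2 fold change of -1.72. At an unadjusted p under 0.05 by edgeR, 1 was higher and 2 lower, against 4.06% and 5.25% of all genes. Serpinf1 had 1 read in the Lgr5 line and 2562 in the Lgr6 line. Both subsets were thus marked by single genes and not by their whole lists, and a median of 2 genes of either list was detected per cell. Among pericyte genes, the potassium channel subunits Kcnj8 and Abcc9 were found in 17 and 14 and in 24 and 18 cells, and the defining Cspg4, Rgs5 and Notch3 in at most 3 cells of a mouse. Of the 6 mesothelial genes, Lrrn4 and Calb2 were at 0 in all 57 cells and Msln, Upk3b and Wt1 were seen in at most 2 cells of a mouse. Krt19, the remaining gene of the list, was detected in 43.9% of the 57 cells.

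Several secreted or induced proteins set the Lgr5+ cells apart beyond the matrix lists, and they were named after their values were seen. Gpx3, the secreted glutathione peroxidase, was at 11.35 and 11.28 in the Lgr5+ mice (11.31 ± 0.05, SD, n = 2 mice) and at 4.97 and 5.26 in the Lgr6+ mice, and was detected in 27 and 26 cells against 25 of 50 and 42 of 75. In sums the gap was smaller, with 3197 and 3988 CPM against 729 and 1299 CPM (log2 ratio 1.82 ± 0.38, SE, adjusted p = 0.327 from edgeR, and 0.0734 on thinned cells). Igfbp3, a binding protein of insulin-like growth factors, was at 8.53 and 7.90 against 2.26 and 2.09, and Id3, an inhibitor of basic helix-loop-helix factors, at 10.08 and 9.75 against 5.22 and 5.16. Penk, the enkephalin precursor, was at 4.65 and 4.38 against 1.24 and 0.96. For Penk the sums were 146.2 and 346 CPM against 56.9 and 18.6 CPM (log2 ratio 2.71 ± 0.77, SE, adjusted p = 0.327 from edgeR, and 0.167 on thinned cells). Gpx3 was missing from 2 cells of each mouse and ran from 7.24 to 14.36 in the others, while Penk was held by 16 and 15 cells. In the sums, the log2 ratio was 2.74 ± 0.37 (SE) for Igfbp3, 2.66 ± 0.37 for Id3 and 3.08 ± 0.45 for Tnfaip6, and edgeR gave each of the 3 an adjusted p of 0.327. With cells thinned to 99000 reads, these 3 genes passed an adjusted p of 0.05 in edgeR.

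Epithelial transcripts were found in the sorted cells. Krt18, a keratin of simple epithelia, was detected in 19 and 18 Lgr5+ cells at 3.22 and 3.86, against 4 of 50 and 12 of 75 Lgr6+ cells at 0.67 and 0.75. Krt8, its partner, was in 18 and 14 cells against 5 and 7. Epcam, the epithelial adhesion molecule, was seen in 7 and 8 cells at 0.82 and 1.44, and Cdh1, E-cadherin, in 1 and 5, so that 17 of the 57 cells had 1 or both. Keratins were therefore found in more cells than the surface markers. In CPM only 1 of the 6 pan-epithelial genes lay above both Lgr6+ mice, where 18.9% of all genes did. The groups overlapped for Krt18, with 39.2 and 99.5 CPM against 4.90 and 44.1 CPM.

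The highest levels of surfactant genes were concentrated in few cells. Sftpc, made by alveolar type II cells, was detected in 15 and 7 Lgr5+ cells and reached a log2(TPM + 1) of 19.20 and 18.61 in the highest cell of either mouse, with a median of 3.27 and 0. At least 6 of the 8 type II genes, a number chosen after the values were seen, were detected in 3 cells of each mouse, and their summed TPM ran from 1312 to 651251 in those 6 cells and from 0 to 1796 in the other 51. Of the 6 cells, 3 had Epcam, 3 had Col1a1 and 4 had Lgr5. In the sums, Sftpc had 44555 and 27742 CPM in the Lgr5+ mice against 1231 and 10431 CPM. Cells high in Sftpc were found in the Lgr6 line too, where the highest cell of either mouse reached 18.41 and 18.37. At least 50% of the type II list was detected in 8 and 5 Lgr5+ cells and in 4 of 50 and 14 of 75 Lgr6+ cells. Scgb1a1, of club cells, was held by 12 and 10 Lgr5+ cells and by 7 of 50 and 4 of 75 Lgr6+ cells, at 459.9 and 152.5 CPM against 9.94 and 24.02 CPM. Cyp2f2, the club cell cytochrome, was found in 4 cells of each mouse and Scgb3a2 in 1. Of the 22 cells with Scgb1a1, 19 had Col1a1 and 6 had Epcam. Whether the epithelial reads came from the sorted cells themselves was not tested.

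Most endothelial and leukocyte genes were rare, but not Itgam. Of 8 endothelial genes, Kdr was found in 0 and 5 cells, Cdh5, Emcn and Tek in 0 and 1 each, Tie1 in 1 and 0, and Cldn5 and Egfl7 in 2 cells of each mouse, with Pecam1 set by the filter. Of the leukocyte genes, Cd3e was at 0 and Cd68, Cd79a, C1qa and Cd52 were seen in at most 1 cell of a mouse and Coro1a in 2 and 1, while Itgam, which encodes the CD11b of the depletion, had reads in 26 and 20 cells at a level of 2.30 and 0.90, against 0.92 and 0.69 in the Lgr6+ mice. The summed TPM of the leukocyte list had a median of 6.07 and 0.44 per cell and did not exceed 237.6.

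Globin reads were found in nearly all Lgr5+ cells and in hardly any Lgr6+ cell. Hbb-bh1 is a beta-like globin of embryonic red cells and Hbb-y another, while adult red cells use the genes called Hbb-bs and Hbb-bt in C57BL/6 mice, Hbb-b1 and Hbb-b2 in other strains, of which the files name the latter pair. Hbb-bh1 was detected in all 29 cells of Lgr5 mouse 1 and in 26 of 28 cells of Lgr5 mouse 2, at a level of 10.22 and 9.65 (9.94 ± 0.40, SD, n = 2 mice), and in 1 of 50 and 0 of 75 Lgr6+ cells. Over all kept cells it had 7018 reads in the Lgr5 line and 3 in the Lgr6 line, a ratio of CPM of 14762 (exact 95% counting interval 5049 to 71602). A cell of Lgr5 mouse 1 held from 4 to 289 reads of it (median 97), and of mouse 2 from 0 to 533 (median 94). Hbb-b2 followed it, in 28 and 26 cells at 10.42 and 10.23. Neither gene was sparse in these cells, and both were all but missing from the Lgr6+ cells. Among all wells of the Lgr6 line, removed wells and pools included, 1 well held Hbb-bh1, with 3 reads.

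Whether Hbb-bh1 reads could belong to another globin turns on shared sequence, since kallisto assigns reads by runs of 31 bases, so the start of its coding region is shown with those of Hbb-y and Hbb-bs. They are the first 90 coding bases, in exon 1 on the minus strand of GRCm38, at chr7:103843021-103843110, chr7:103853063-103853152 and chr7:103827786-103827875, and capitals mark bases that differ from Hbb-bh1 at the same position.
Hbb-bh1: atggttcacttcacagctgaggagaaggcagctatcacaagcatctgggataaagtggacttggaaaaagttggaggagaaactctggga
Hbb-y: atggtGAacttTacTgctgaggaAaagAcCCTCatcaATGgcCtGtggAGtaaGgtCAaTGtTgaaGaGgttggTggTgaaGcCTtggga
Hbb-bs: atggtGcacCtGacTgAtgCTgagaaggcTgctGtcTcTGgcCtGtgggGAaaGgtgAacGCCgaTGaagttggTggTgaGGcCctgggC
Hbb-y differed from Hbb-bh1 at 30 of these bases and Hbb-bs at 29. Of the 583 distinct 31-base runs of the Hbb-bh1 transcripts in GENCODE vM21, 0 occurred in a transcript of another gene. The sequence of Hbb-b2 was not analysed here.

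Other erythroid genes were found unevenly. Hbb-y had 45 reads in 10 and 11 Lgr5+ cells and 0 in the Lgr6 line, which made it at least 94.7-fold higher when the Lgr6 line was set to a floor of 3 counts in all. The adult alpha globins Hba-a1 and Hba-a2, whose reads can be split between near-identical copies, were seen in 3 and 6 and in 3 and 2 cells, and Hbb-b1 was at 0 in all 57. The erythroid transcription factor Gata1 was detected in 12 and 10 Lgr5+ cells and 0 Lgr6+ cells, with 83 reads against 0, which was at least 174.6-fold higher on the same floor. Gfi1b, a repressor in the same lineage, was in 4 and 6 cells, and Klf1, the factor that drives adult beta globin, was at 0 in every kept cell. Alas2, the first enzyme of heme synthesis in red cells, was found in 15 and 11 cells against 0 and 5. The transferrin receptor Tfrc, which brings iron into the cell, was in 16 and 17 cells against 4 and 11. Rhag, an ammonium channel of the red cell membrane, had reads in 20 and 24 Lgr5+ cells. Of 8 red cell membrane and receptor genes, Rhag included, medians of 2 and 3 were detected per Lgr5+ cell, against 2 in each Lgr6+ mouse. Dlk1, an imprinted Notch-family ligand of embryonic tissue, was in 17 and 18 Lgr5+ cells with 518 reads and in 0 Lgr6+ cells, at least 1090-fold higher on that floor.

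**Figure D3:**
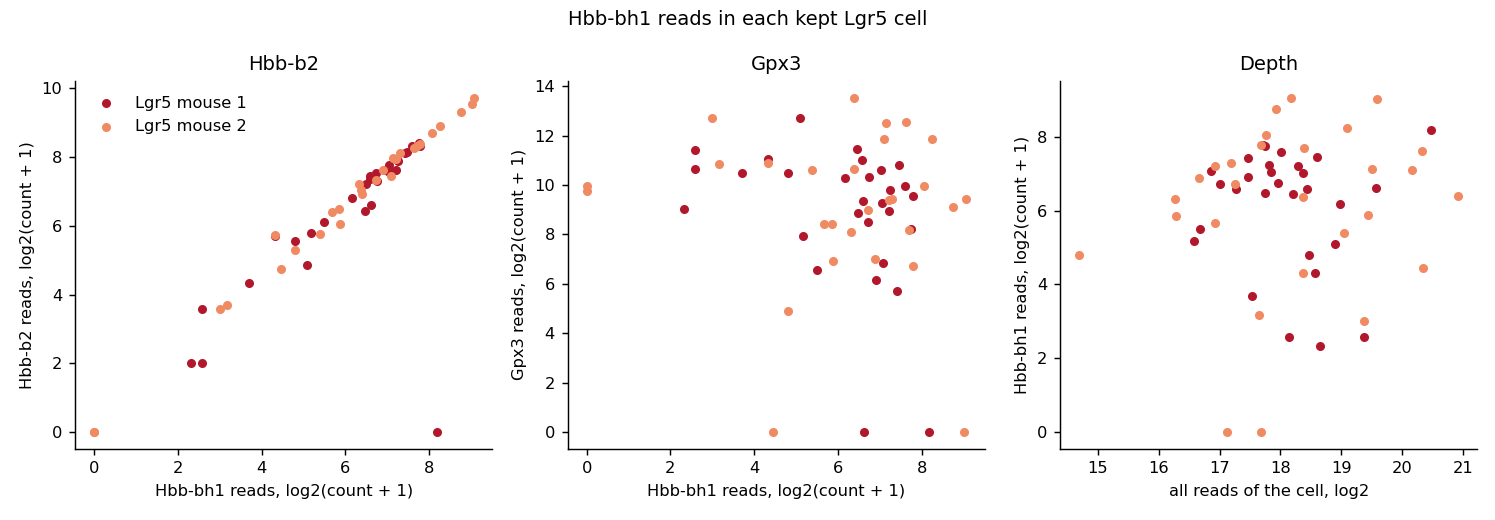
Reads of Hbb-bh1 in each of the 57 Lgr5+ cells against reads of Hbb-b2 (left), of Gpx3 (middle) and against the total of the cell (right), all as log2, coloured by mouse. Hbb-b2 runs along a line with Hbb-bh1 except in 1 cell of mouse 1, while Gpx3 and the total do not.

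Reads of the 2 globins came in a narrow range of proportions. In cells with at least 50 reads of both genes together, the ratio of Hbb-b2 to Hbb-bh1 reads had a median of 1.56 (quartiles 1.44 and 1.65, n = 25 cells) in mouse 1 and of 1.55 (1.47 and 1.65, n = 23 cells) in mouse 2. The ratio of Gpx3 to Hbb-bh1 reads in the same cells had quartiles of 2.14 and 12.01 in mouse 1 and of 1.34 and 23.3 in mouse 2. The quartiles of the globin ratio thus lay close together and those of the Gpx3 ratio far apart. Reads of Hbb-bh1 had little relation to the depth of the cell: Spearman's rho between its reads and the total was -0.16 over 29 cells and 0.19 over 28, and between its share of reads and the total -0.65 and -0.45. Lgr5 reads showed rho of 0.04 and 0.01 with the total, and Gpx3 reads 0.39 and 0.40. With the number of genes detected in a cell, rho was 0.51 and 0.28 for Hbb-bh1 reads, 0.63 and 0.27 for Hbb-b2, -0.26 and -0.04 for Lgr5 and -0.67 and -0.21 for Lum.

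Co-detection within the cells of each mouse was measured as Spearman's rho of log2(TPM + 1), with 7 genes as starting points. It is given without a test because the cells of a mouse are not replicates, and their depths differ widely. From Hbb-bh1, 54 of 4956 genes compared had a rho of at least 0.7 in both mice, 26 of at least 0.8 and 5 of at least 0.9. The closest were Hbb-b2 (0.97 and 0.99), Rpl10l, a testis copy of a ribosomal protein gene (0.93 and 0.96), Gm4925 (0.93 and 0.96), Rpl15 (0.91 and 0.96) and Acta1, the actin of skeletal muscle (0.91 and 0.93). They went on with Gm12191, the replication factor Gins3, Rpl31-ps12, the myosin light chain Myl6b and Rps18. Among the 54 were 10 of the 88 ribosomal protein symbols compared (11.4%) and 9 symbols of the Gm series (6.21% of those compared), against 1.09% of all genes, and also Rn45s (0.83 and 0.94) and Eef1a1 (0.82 and 0.91), which were among the most abundant transcripts of these cells. With the authors' scaled counts in place of TPM the number was 73. The 54 genes made up between 0.41 and 17.04% of a cell's TPM, Rn45s left out, with a median of 6.06%, against a median of 1.55% in the Lgr6+ cells.

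From each of the other 6 starting genes, 0 genes reached a rho of 0.7 in both mice, which for Mki67, detected in 1 and 2 cells, says nothing because so few cells cannot give a high rho. The highest partner of Lgr5 was Duxbl1 (0.38 and 0.45), and Lum was also among its 10 closest (0.33 and 0.54). Col1a1 was followed by Wls, the carrier that exports Wnt proteins (0.45 and 0.57), Malat1, the matrix protein Aspn (0.41 and 0.60), Pmp22 and, last of its 10 closest, Col3a1 (0.37 and 0.62). Acta2 came with Myl9 (0.43 and 0.54) and Tagln (0.47 and 0.39). The highest value from Sftpc was 0.39 and from Scgb1a1 0.50. Correlations this weak in sparse counts are not findings.

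**Figure D4:**
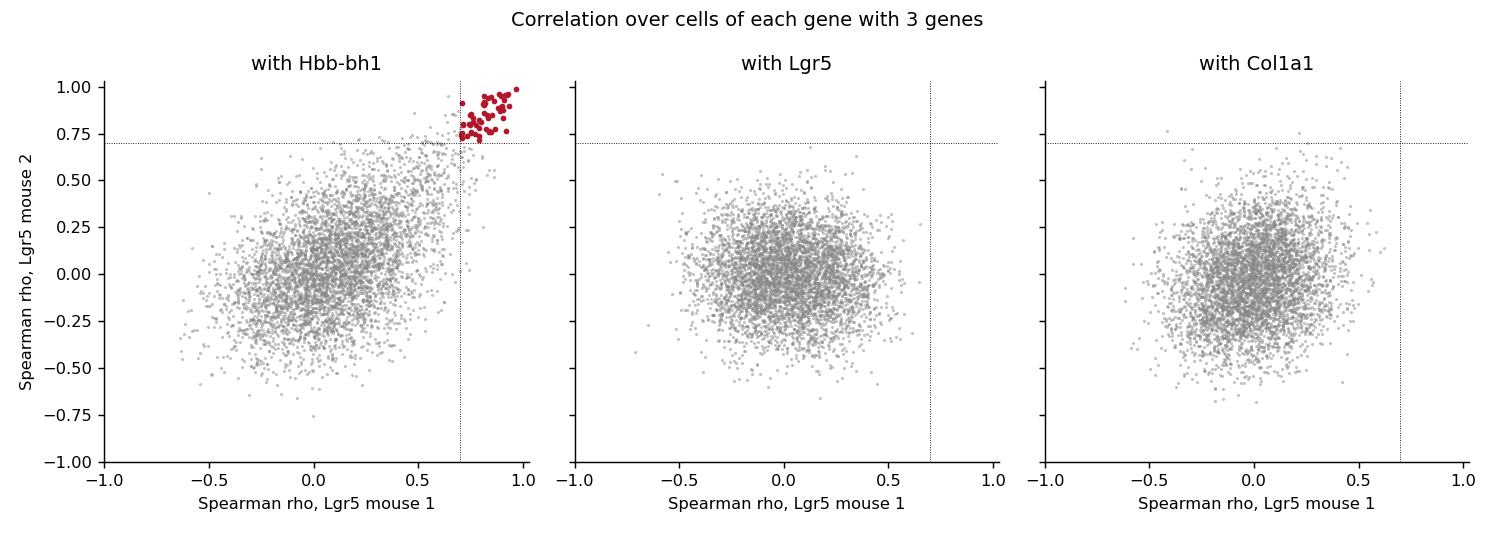
Spearman's rho of each gene with Hbb-bh1 (left), Lgr5 (middle) and Col1a1 (right), over the 29 cells of Lgr5 mouse 1 (horizontal) and the 28 cells of Lgr5 mouse 2 (vertical), with dotted lines at 0.7. The 54 genes above 0.7 in both mice with Hbb-bh1 are drawn in red, and 0 genes lie there for Lgr5 and Col1a1.

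Acta1, detected in 22 and 21 Lgr5+ cells, shared 0 of its 1534 31-base runs with Acta2 and 63 with other genes, Actb first. Its level was 4.40 and 4.53 in the Lgr5+ mice against 0.19 and 0.10 in the Lgr6+ mice. Acta2 itself had a rho with Hbb-bh1 of -0.02 and -0.15. Rpl10l, on chromosome 12 from 66283379 to 66284401, had 3359 reads in the Lgr5 line and 0 in the Lgr6 line, at least 7066-fold higher on the floor of 3 counts, and 232 of its 993 31-base runs also occur in the pseudogene Gm14460, so the gene that its reads came from is uncertain. Genes of the cells' other programs were not bound to Hbb-bh1: rho was -0.06 and 0.13 for Lgr5, 0.06 and -0.12 for Dcn, -0.57 and -0.30 for Lum and -0.27 and -0.32 for Col1a1. Krt18 stood between, with 0.61 and 0.45, and Hbb-bh1 reads were present in all 37 cells with Krt18. Tfrc had 0.76 and 0.63, Dlk1 0.74 and 0.61 and Gata1 0.51 and 0.65.

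Wells that the filter had removed carried globin reads too. Of the 66 and 67 removed wells of the 2 Lgr5 mice, 20 had under 2000 genes, and among the rest Hbb-bh1 was found in 51 of 59 and 45 of 54, with a median Hbb-b2 to Hbb-bh1 ratio of 1.49 and 1.59. The ratio reached 230.1 and 1661 in removed wells, against at most 2.68 and 2.74 in kept cells, so that at least 1 removed well of each mouse held Hbb-b2 with few Hbb-bh1 reads. Removed wells met several criteria at a time: of 66 and 67, Ptprc was at 1 TPM or more in 40 and 32, Pecam1 in 42 and 41, both in 31 and 23, and tdTomato was not above 32 TPM in 29 and 26. Removed wells with at least 2000 genes had medians of 9418 and 6503 genes, above the kept cells. They held Lgr5 in 39 and 32 wells, Vim in 57 and 54, and Scgb1a1 in 56 and 47.

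Genes of the response to dissociation were strong in these cells, with medians of 16 and 15 of 22 detected per cell. The highest were the AP-1 subunit Junb at 9.87 and 9.31, Nfkbia, the inhibitor of NF-kB, at 8.87 and 9.59, and the nuclear receptor Nr4a1 at 9.21 and 8.50. Of the 22, 13 had a higher CPM in both Lgr5+ mice than in both Lgr6+ mice (18.9% of all genes did) and 4 a lower one (24% did), with 5 and 1 at an unadjusted p under 0.05 by edgeR (4.06% and 5.25% of all genes) and a median log2 fold change of 0.56. Nfkbia had 1148 and 1630 CPM against 693 and 557.5 CPM. Fosb, at 585 and 475 CPM against 204 and 96.7 CPM, lay above the Lgr6+ mice, whereas its relative Fos lay below, at 1106 and 947 CPM against 2297 and 1697 CPM. The list was thus divided in direction. Mt2, a metallothionein named among the most variable genes, was at a level of 4.80 and 6.30 against 2.31 and 2.27.

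Of 18 cell cycle genes, medians of 7 and 5 were detected per Lgr5+ cell, against 2 and 3 in the Lgr6+ mice. The highest number in a cell was 14 in each Lgr5+ mouse, and 5 and 6 in the Lgr6+ mice. Mki67, the usual proliferation marker, was detected in 1 and 2 of the Lgr5+ cells and Cdk1 in 0 and 2. Top2a, the mitotic topoisomerase, was found in 15 and 11 cells against 0 and 1 Lgr6+ cells, Rrm2, of nucleotide synthesis, in 11 and 10 against 0 and 2, and the mitotic cyclin Ccnb1 in 12 and 7 against 1 and 0. Reads were few, with 237 of Top2a in the Lgr5 line and 2 in the Lgr6 line (ratio of CPM 748, exact 95% counting interval 205 to 6211). Of 18 genes tested, 8 had a higher CPM in both Lgr5+ mice and 2 a lower one, beside 18.9% and 24% of all genes. At an unadjusted p under 0.05 by edgeR, 4 were higher and 0 lower, against 4.06% and 5.25% of all genes. Whether any of these cells were cycling was not tested. With Hbb-bh1, rho was 0.40 and 0.42 for Top2a and 0.50 and 0.53 for Ccnb1.

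Ribosomal protein genes were also high, with medians of 75 and 76 of 80 detected per cell against 67 and 68 in the Lgr6+ cells. In CPM, 46 of 79 tested were higher in both Lgr5+ mice and 5 lower (18.9% and 24% of all genes were), with a median log2 fold change of 0.64, and 9 of the list were among the 54 genes that went with Hbb-bh1.

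The sexes of the mice were not labelled, and sex-linked genes differed between the lines. Xist, which silences an X chromosome in females, had 6.89 and 25.2 CPM against 1210 and 767 CPM in Lgr6+ cells (log2 ratio -5.94 ± 0.79, SE, adjusted p = 0.327 from edgeR). The Y-linked Eif2s3y was found in 21 and 15 Lgr5+ cells against 7 of 50 and 4 of 75 Lgr6+ cells. Line, sex and plate cannot be told apart with these 4 mice, and this holds for every difference between the lines given here.

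Across all genes, the kept cells of the 2 lines were compared as read sums per mouse. With edgeR (quasi-likelihood, Benjamini-Hochberg), 0 of 14086 genes passed at 0.05, and the smallest adjusted p was 0.293, for Rpl10l. At an unadjusted p under 0.05, 572 genes were higher in the Lgr5+ mice and 740 lower. Other tools and settings did make calls: DESeq2 called 962 genes, 564 of them higher, limma on the mean level per mouse 634 with 473 higher, edgeR without a filter on low counts 408 with 234 higher, and edgeR on cells thinned to 99000 reads 17 with 15 higher. The median log2 ratio was 0.31 over the 19715 genes of DESeq2, 0.19 over the same number in edgeR without the filter and -0.05 over the 14086 genes of edgeR with it. The genes called on thinned cells were 2810433D01Rik, Akap5, Gins3, Gm4925, Gm6548, Gm9846, Hbb-b2, Hbb-bh1, Id3, Igfbp3, Rpl10l, Rpl15, Rpl31-ps12, Rpl39l and Tnfaip6, all higher in the Lgr5+ mice, and Acta2 and Xist, both lower. Leaving out Lgr6 mouse 1 gave 34 calls and leaving out Lgr6 mouse 2 gave 7, the remaining mouse being given the spread of the other line. Shares of cells with a gene were compared by a two-sided exact permutation test over mice, which cannot give a p below 0.333 for 2 against 2: this was the value for Lgr5, Acta2, Dcn, Lum, Gpx3, Hbb-bh1, Krt18, Scgb1a1, Xist, Col1a1 and Vim, while Pdgfrb gave 0.667 and Lgr6 1.

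Because 0 genes passed, 15 genes were named in each direction by the largest log2 ratio among those with an unadjusted p under 0.05, no overlap of the lines and at least 50 CPM in both mice of the higher line. Of the 15 higher in the Lgr5+ mice, Hbb-bh1 was 1 and 8 belonged to the genes that went with it, namely Rpl10l, Hbb-b2, Gins3, Gm6548, Gm6682, 2810433D01Rik, Gm4925 and Tmem170. The others, besides Scgb1a1, came from few cells. Cyp2b10, a cytochrome, had 176.1 and 73.1 CPM from 3 and 6 cells and Ralgps2 63.3 and 51.9 CPM from 9 and 6. Aox3, an aldehyde oxidase, had 161.5 and 61.4 CPM from 1 and 3 cells, Ripk4, a kinase of epithelia, 165.4 and 88.5 CPM from 1 and 3, and Chi3l1, a secreted chitinase-like protein, 832 and 1361 CPM from 1 and 2. For Chi3l1 the mean level over cells was 0.41 and 0.90 against 0.77 and 0.82 in the Lgr6+ mice, so its high sum rests on 3 cells.

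Among the 15 lower genes, 0 went with Hbb-bh1. Slc20a2, a phosphate transporter, had 0 reads in all 57 cells and 9793 in the Lgr6 line, at least 517-fold lower on the floor of 3 counts. Postn, periostin, a matrix protein of activated fibroblasts and smooth muscle, had 0.48 and 6.71 CPM against 265 and 208 CPM. Ptch1, the Hedgehog receptor and target, had 4.40 and 12.05 CPM against 151.5 and 126.4 CPM, and Gli1, the transcription factor of the same pathway, was found in 0 and 1 Lgr5+ cells. Agt, angiotensinogen, Rbp4, a retinol carrier, Cldn1, of tight junctions, and Etv1, an ETS factor, were each detected in at most 6 cells of an Lgr5+ mouse. The rest were Xist, Sh3rf2, B3gnt2, Myom1, Serpina3n, Igtp, Nhsl2 and Rrad. Each of the 15 was detected in between 13.3 and 89.3% of the kept cells of an Lgr6+ mouse.

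**Figure D5:**
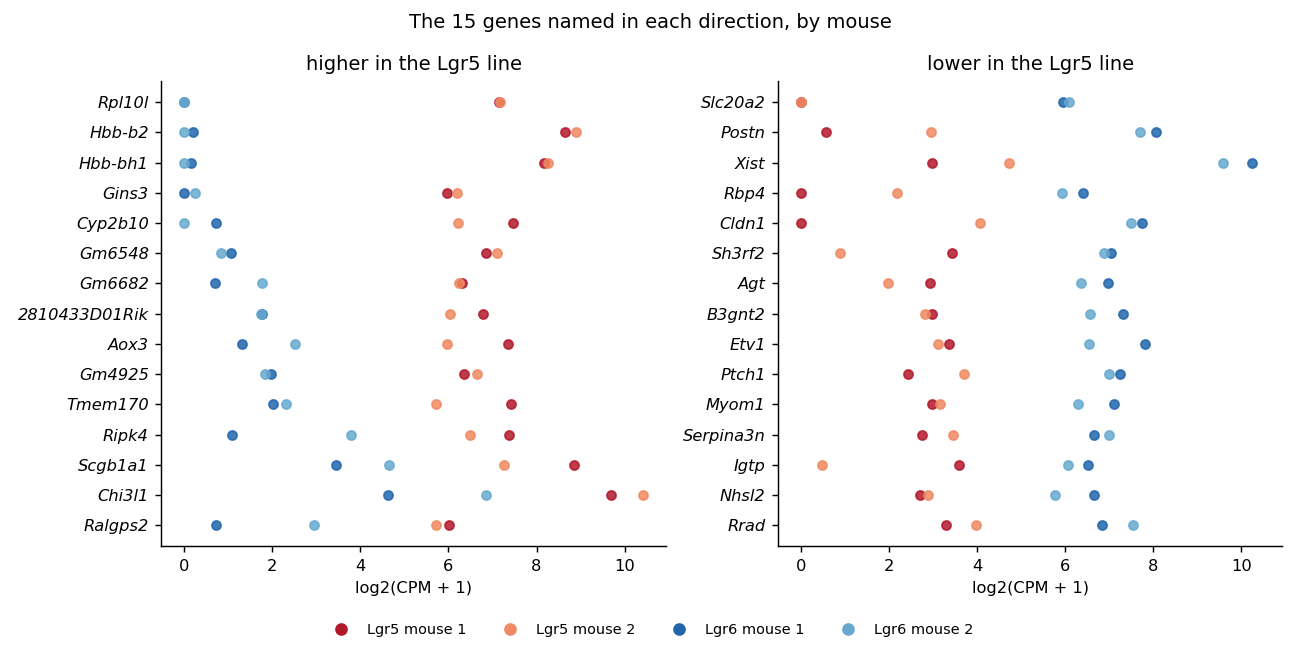
Level of the 15 named genes in each direction as log2(CPM + 1) of the reads summed over the kept cells, with a point for each mouse. The mice of the lines do not overlap for any of the 30 genes, as the rule for naming them requires.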

How the data were processed

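Single cells were sorted into plates and sequenced by a modified Smart-seq2 protocol (oligo-dT priming, template switching, PCR, 38-base paired reads, no molecular identifiers). Per the submitters' processing notes and the study's methods, reads were demultiplexed with bcl2fastq 2.17.1.14 and assigned to the mm10 transcriptome with kallisto 0.43.0, and the authors summed transcript counts to counts of 23422 genes per well. The annotation release is not given in the sources used here. The log2 TPM values were deposited by the authors as log2(TPM + 1) for the cells left by their filter, and the scaled counts, treated here as a score, are the authors' counts brought to a common depth. The filter kept wells with at least 2000 genes, enough housekeeping signal, tdTomato above 32 TPM and Ptprc and Pecam1 under 1 TPM, and left out the 1% with the most genes.

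Samples were grouped by line and mouse from their titles. Here, a gene was detected in a cell with at least 1 count, and levels were means of log2(TPM + 1) over the cells of a mouse (pseudocount 1). The lines were compared on counts summed per mouse with edgeR 4.0.16 (TMM, its default filter on low counts, quasi-likelihood test, Benjamini-Hochberg adjustment) in R 4.3.3, with DESeq2 1.42.0, limma 3.58.1 and the settings described in the closing section as alternatives. The scripts were tested on simulated data. Intervals are 95% Clopper-Pearson or exact Poisson, and the floor for genes at 0 was 3 counts over a line. Cells with under 99000 reads were left out where cells were thinned. P-values rest on 2 mice per line, and the labels tie no mouse number to a shared litter or day. Coding sequences and 31-base runs were read from GRCm38 with GENCODE vM21. Other steps used Python 3.11.15, scipy 1.17.1, pandas 2.3.3, numpy 2.4.6 and, for figures, matplotlib 3.10.9.

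Genes were named as members of 26 lists, as genes the study names for these cells, by the 20 highest levels, the 10 highest detected in all cells and the 20 largest SDs, by 15 genes per direction of the line comparison (filled up from unadjusted p under 0.05, no overlap and at least 50 CPM in both mice of the higher line, since 0 passed), and as the 10 closest partners of 7 starting genes, each compared with genes detected in at least 8 cells of each mouse. Gpx3, Igfbp3, Id3, Penk and a few others were named after their values were seen. The members and the lists were chosen with earlier results of these data known.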

Additional observations from a re-analysis of the deposited data

Results flagged for a closer look

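Each mouse also had a well with a pool of cells, which no comparison above used. The pool of Lgr5 mouse 1 held 20 reads of Hbb-bh1 among 353310 reads and 6122 genes, and the pool of Lgr5 mouse 2 held 51 among 204948 reads and 2652 genes, while the pools of both Lgr6 mice held 0. The globin reads of the Lgr5 line were thus also found in wells outside the kept cells, and not detected in the pools of the other line. Of the 20 single wells of the Lgr5 line with under 2000 genes, 4 held Hbb-bh1 reads, against 51 of 59 and 45 of 54 removed wells with more genes. How reads came into these shallow wells was not tested.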

How the results depend on the processing

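The number of genes called between the lines was 0 in either direction in the edgeR fit. Without its filter on low counts, edgeR called 408 genes (234 higher in the Lgr5 line), and on thinned cells 17 (15 higher). DESeq2, which was also run on 19715 genes, called 962 (564 higher), and limma on mean levels, which changes tool, unit and cell weight together, 634 (473 higher). Leaving out a mouse at a time gave 0 to 34 calls, 0 to 23 of them higher, the most without Lgr6 mouse 1. Calls stayed at 0 with library size in place of TMM and, in alternatives chosen after seeing the data, without Rn45s or without the genes that went with Hbb-bh1. With mouse number as a replicate block the count was 0 as well, and deviations of same-numbered mice correlated at 0.04 over 14086 genes, so the numbers gave no pairing.

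Of 61 named genes, DESeq2 put 35 past the threshold, limma 43, edgeR without the filter 46 and the thinned cells 12. Some log2 ratios turned direction, most of them near 0 but not those of Inmt and Chi3l1. Lgr6 (-0.01) became 0.10 with DESeq2, 0.063 with library size, 0.29 with limma and 0.0014 without the genes that went with Hbb-bh1, and ran from -0.56 to 0.43 when a mouse was left out. Vim (-0.07) became 0.024 with DESeq2, 0.48 with limma and 0.071 on thinned cells, with -0.51 to 0.31 when a mouse was left out. Pdgfrb (0.14) became -0.59 with the replicate block, -0.65 with limma and -0.58 on thinned cells, with -2.09 to 0.98 when a mouse was left out. Rn45s became 0.16 on thinned cells. With limma, Inmt went from -2.79 to 0.56 and Chi3l1 from 3.98 to -0.14, and limma reads the mean level over cells instead of the sum. Gsn ran from -0.29 to 0.79. The cause was not tested. The difference in the share of cells with Lgr6 (-0.47 percentage points) became 0.871 on thinned cells and 4.53 with a TPM above 1. On the authors' scaled counts the levels of Lgr5, Col1a1 and Vim were 4.01, 4.94 and 6.58, a change of scale, and the genes that went with Hbb-bh1 numbered 73.

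The shallowest kept cell had 26546 reads, and a gene at 0 in a cell is one not detected at its depth. With 2 mice per line, line, sex and sort cannot be told apart, and sums of genes found in few cells, such as Chi3l1 or Cnn1, follow those cells.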
